A study of Mus musculus with 6 samples.

Results

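The regulators of the integrated stress response that were examined are 10 genes: the transcription factors Atf4, Ddit3 (encoding CHOP), Atf5, Atf3 and Cebpb, the feedback genes Trib3 and Ppp1r15a, the effector genes Chac1 and Sesn2, and the chromatin cofactor Nupr1. They were taken by gene symbol from the 55487 genes of the deposited count table, in which they fill 11 rows because the symbol Ddit3 occurs 2 times. Their expression was compared in αTC1 cells, a mouse glucagonoma line of pancreatic α cells, between 3 libraries from cells treated with the SMNDC1 inhibitor labelled G786-1089 and 3 libraries from cells treated with the solvent DMSO. The sample titles give only the name G786-1089. It was taken from context to be compound 1 of the study, the name used here, though no source used here equates these names. The study calls compound 1 non-selective, saw effects on the related protein SMN, and reports cell death with longer treatment. The column names mark all libraries of both groups as WT (wild type). No genetic change is given for either group, and all libraries come from the same cell line. The labels give no dose, duration or sequencing batch, and nothing in them says that the replicates are separate cultures, so p-values measure the spread between these libraries only. For cell culture work in general, the reporting summary of the study states that each replicate was divided among treatments from a common batch. It adds that the samples of a replicate were handled jointly.

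In the integrated stress response, kinases that sense different stresses phosphorylate the translation initiation factor eIF2α. General protein synthesis then falls, while mRNAs with suitable upstream open reading frames, such as that of Atf4, are translated more. ATF4 protein activates genes for amino acid supply and further transcription factors, among them CHOP, with which it cooperates. Secretory cells such as α cells rely on the PERK branch of this response when proteins misfold in the endoplasmic reticulum. The libraries measure mRNA, and neither ATF4 protein nor eIF2α phosphorylation was analysed here.

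Library totals ranged from 70150880 to 94747943 counts with compound 1 and from 59070705 to 69480568 with DMSO, so every compound 1 library was deeper than every DMSO library. The share of counts on mitochondrial genes was 3.57, 2.96 and 3.02% with compound 1 and 2.27, 2.5 and 2.76% with DMSO, without overlap. Glucagon mRNA (Gcg) marked the line in all libraries and was lower with compound 1 (3130 ± 417 CPM against 21200 ± 1470, SD, n = 3 each). CPM is the count of a gene relative to the TMM-scaled total of its library. Of 11 tested α cell markers, 5 fell and 0 rose past an edgeR adjusted p of 0.05, against 7.8% and 6.98% of all tested genes. The summed level of the α cell markers was 5210 to 6000 CPM with compound 1 against 24600 to 27400 with DMSO. Most of this sum was Gcg in both groups. Of the markers of other islet cells, Ins1, Pdx1, Sst, Ppy and Hhex were at 3 counts or fewer in all libraries. The β cell list of 8 genes summed to 6.54 to 11.4 CPM with compound 1 and 10.3 to 15.4 with DMSO. The list of 4 δ and PP cell markers summed to 423 to 438 and 315 to 351 CPM, which was nearly all Rbp4, and the 11 exocrine, stromal and immune markers to 35.6 to 64.9 and 19.2 to 33.8 CPM. The part of the depth, mitochondrial and marker differences in the results below was not tested. Smndc1, the gene of the compound's intended protein target, had 3.80 ± 2.42 CPM with compound 1 and 2.12 ± 0.575 with DMSO, in ranges that overlapped. In RNA from whole cultures, a loss of some cells and less RNA per cell cannot be told apart.

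Of the 10 regulators, 6 rose with compound 1, 1 fell and 3 did not pass an adjusted p of 0.05 in edgeR's quasi-likelihood test over 15082 genes. Among all tested genes 14.8% passed, 6.98% higher and 7.8% lower. Ddit3, Nupr1, Trib3, Ppp1r15a, Cebpb and Sesn2 were the genes that rose, and Chac1 the gene that fell. Atf4 itself, Atf3 and Atf5 did not pass. All 10 had enough counts to be tested, and the median of their log2 fold changes was 1.68 against 0.0411 for all tested genes. In 9 of them the CPM values of the groups did not overlap, against 36.7% of the tested genes. With the thresholds of the study (adjusted p up to 0.1 and a log2 difference of 1 or more in size), 7 regulators passed, all higher, against 6.25% of genes passing as higher.

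**Figure D1:**
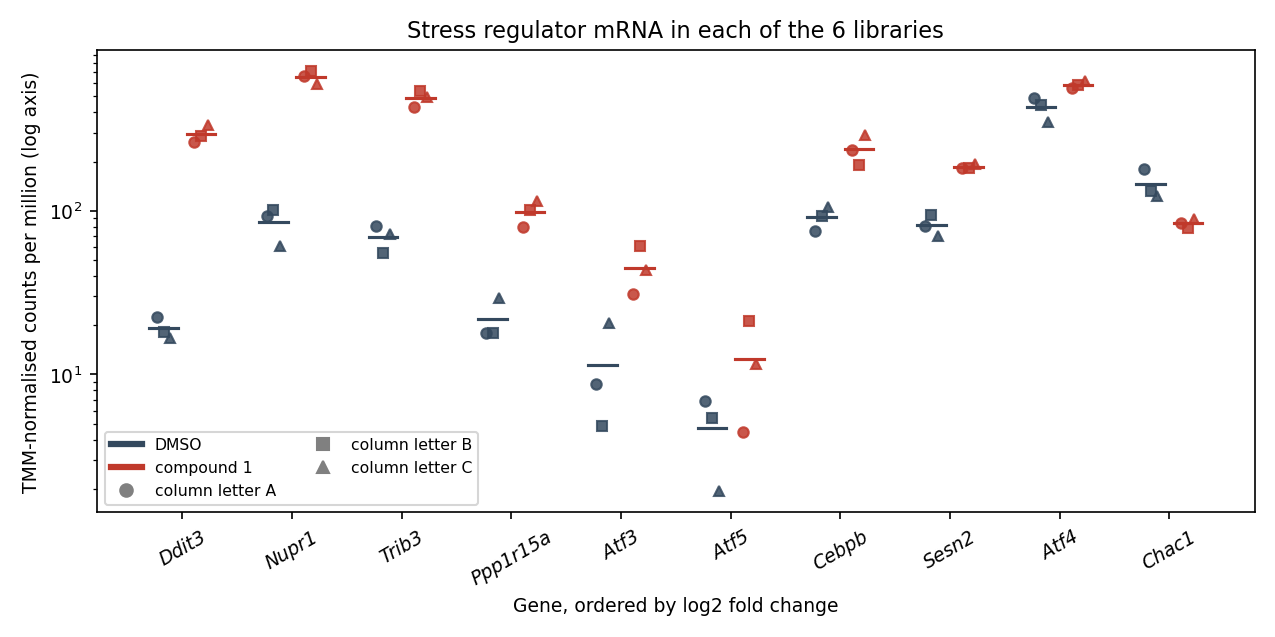
TMM-normalised CPM (y axis, log scale) of the 10 regulators, with 1 point for each of the 3 DMSO and 3 compound 1 libraries and a line at each group mean; marker shapes stand for the letters of the libraries. Ddit3 goes from 16.8 to 22.5 CPM with DMSO up to 263 to 332 with compound 1, while the points of Atf5 overlap.

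Atf4, the central transcription factor of the response, was the most abundant regulator with DMSO. It lies on chromosome 15 of GRCm38 from 80255184 to 80257541 (ENSMUSG00000042406), and no exon of another gene overlaps it. Its level was 563, 587 and 622 CPM in compound 1 libraries A, B and C, and 492, 444 and 350 CPM in DMSO libraries A, B and C. Every compound 1 library was thus above every DMSO library, with DMSO library C the lowest. The log2 fold change was 0.46 (standard error 0.13), a 1.38-fold difference, and missed the threshold with an edgeR adjusted p of 0.0592. Without TMM scaling, with library size only, it was 0.67 (edgeR adjusted p = 0.0204), but that scaling moved the median of all genes by 0.20, and relative to this median the difference was 0.42 with either scaling. The transcript with the annotated main reading frame has 3 exons and a 5′ leader of 594 bases with 3 upstream ATGs. One frame that starts at them overlaps the main reading frame, as is known for this gene.

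Ddit3 encodes CHOP, a transcription factor that pairs with other basic leucine zipper proteins and is known for promoting cell death in prolonged stress. Its main row (ENSMUSG00000025408, chromosome 10, 127290774 to 127296288) had 263, 286 and 332 CPM with compound 1 and 22.5, 18.3 and 16.8 CPM with DMSO in libraries A, B and C. The groups lay far apart. The log2 fold change of 3.94 (standard error 0.16, edgeR adjusted p = 0.000102) corresponds to 15.3-fold, and ranked 6 among the 7900 tested genes whose mean log2 CPM reached 3. Every alternative setting kept it past the threshold, with log2 fold changes of 3.84 to 4.14. The second row named Ddit3 (ENSMUSG00000116429), a 105-base transcript within the first, held 0 counts in every library and was not tested. All its bases lie in exons of the first row. The study counted in Union mode, which leaves out reads that overlap more than 1 gene, so this 0 does not show absence. Other genes cover 10.9% of the Ddit3 exon bases, namely that short transcript and, on the opposite strand, Gm4189 and Mars1. The protocol does not keep the strand. Reads on bases shared with these genes would thus be left out of the Ddit3 count rather than added. Gm4189 had 0.497 to 1.12 CPM with DMSO and 0.11 to 0.369 with compound 1, and Mars1 had 294 to 427 and 234 to 316 CPM, so neither was higher with compound 1.

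The treatments differed by more in Ddit3 than in Atf4. On the FPKM scale, which corrects for transcript length, Ddit3 stood at 0.0885, 0.08 and 0.0929 of the Atf4 level in DMSO libraries A, B and C. With compound 1 the ratio was 0.906, 0.945 and 1.03. The transcripts were thus about equally abundant with compound 1. The ratio of Trib3 to Atf4 went from 0.140 ± 0.0346 to 0.705 ± 0.0664 (SD, n = 3 each), again without overlap. The ratios were not tested.

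Cebpb, Atf3 and Atf5 encode further basic leucine zipper factors. C/EBPβ is a dimer partner of both ATF4 and CHOP. Cebpb (ENSMUSG00000056501, chromosome 2, 167688915 to 167690418, a single exon) had 234, 191 and 290 CPM with compound 1 and 75.1, 92.8 and 106 with DMSO. It rose by a log2 fold change of 1.38 (standard error 0.19, edgeR adjusted p = 0.00566) and passed under every alternative. The opposite-strand gene Tmem189 covers 20.7% of its exon, and reads on these shared bases would be left out of the count. Tmem189 had at most 17.8 CPM with compound 1 and 22.1 with DMSO.

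ATF3, an inducible repressor and activator, is itself switched on by ATF4 and by other stress pathways. Atf3 (ENSMUSG00000026628, chromosome 1, 191170296 to 191218039) had 31.0, 60.6 and 43.3 CPM with compound 1 and 8.71, 4.86 and 20.6 with DMSO. The groups stayed apart, but the spread within each was wide, and DMSO library C stood above the other DMSO libraries. On the log2 scale the difference was 1.98 (standard error 0.55, edgeR adjusted p = 0.0593). Without DMSO library C it was 2.72 and passed (edgeR adjusted p = 0.0244). With all libraries it passed in edgeR with library size only (adjusted p = 0.0392) or with genes of at least 10 counts in every library (adjusted p = 0.026), in DESeq2 (adjusted p = 0.00212) and in limma-trend with an FPKM minimum (adjusted p = 0.00777 and 0.0116).

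ATF5, a close relative of ATF4, is also controlled through upstream open reading frames. Atf5 (ENSMUSG00000038539, chromosome 7, 44812256 to 44816658) was the least expressed regulator, with 4.44, 21.1 and 11.6 CPM with compound 1 and 6.84, 5.46 and 1.93 with DMSO. Compound 1 library A fell inside the DMSO range. Its log2 fold change was 1.38 with an error of 0.69 (edgeR adjusted p = 0.249), and it was 0.76 without compound 1 library B. Cebpb had the same log2 fold change with a much smaller error. Exons of Il4i1 and of Nup62, which had 154 to 216 CPM with compound 1 and 179 to 195 with DMSO, cover 4.11% of the Atf5 exon bases on the opposite strand.

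Trib3 and Ppp1r15a act back on the response. TRIB3 is a pseudokinase that binds ATF4 and CHOP and restrains them. Trib3 (ENSMUSG00000032715, chromosome 2, 152337422 to 152344032) had 433, 538 and 497 CPM with compound 1 and 80.6, 55.4 and 72.0 with DMSO. This was a log2 fold change of 2.82 (standard error 0.17, edgeR adjusted p = 0.000246), or 7.05-fold, and it passed under every alternative.

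GADD34, the product of Ppp1r15a, brings a phosphatase to eIF2α and so restores translation. Ppp1r15a (ENSMUSG00000040435, chromosome 7, 45522916 to 45526268) had 79.2, 101 and 114 CPM with compound 1 and 17.9, 18.0 and 29.5 with DMSO, without overlap. It rose 4.49-fold, with a log2 fold change of 2.17 (standard error 0.26, edgeR adjusted p = 0.00315), and passed under every alternative. Its constitutive relative Ppp1r15b had 14.3 ± 4.96 and 7.77 ± 2.74 CPM (SD, n = 3 each), a difference that did not pass (edgeR adjusted p = 0.206).

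Chac1 and Sesn2 are effectors. CHAC1 cleaves glutathione, and its gene is a known target of ATF4 and CHOP. Chac1 (ENSMUSG00000027313, chromosome 2, 119351229 to 119354381) had 84.4, 78.9 and 89.0 CPM with compound 1, and 179, 132 and 124 CPM with DMSO. It was the only regulator with lower values, and no compound 1 library reached the DMSO range. The difference was -0.79 on the log2 scale (standard error 0.16, edgeR adjusted p = 0.022), or 1.72-fold lower. The direction was the same in all alternatives (-0.89 to -0.58), but the call was not. The edgeR adjusted p was 0.0621 with library size only, although the difference from the median of all genes was -0.83 with either scaling. It was 0.0678, 0.0717 and 0.0613 without compound 1 library A, B or C, and 0.0504 without DMSO library B. With the column letter as a replicate block it was 0.0567, and with glmTreat, which tests against a log2 fold change of 0.5, it was 0.17. The FPKM of Chac1 was 2.75, 2.94 and 2.13 times that of Trib3 in DMSO libraries A, B and C, and 0.241, 0.182 and 0.222 times with compound 1. Chac2, its relative, had 29.9 ± 1.58 and 37.4 ± 6.51 CPM (edgeR adjusted p = 0.32).

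Sestrin 2 is a leucine sensor that restrains growth signalling through mTORC1. Sesn2 (ENSMUSG00000028893, chromosome 4, 132492032 to 132510501) had 183, 182 and 192 CPM with compound 1 and 81.1, 94.4 and 69.9 with DMSO. The compound 1 libraries lay close together. The log2 fold change of 1.18 (standard error 0.13, edgeR adjusted p = 0.00229) passed under every alternative.

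NUPR1 is a small disordered chromatin protein induced by many stresses. Nupr1 (ENSMUSG00000030717, chromosome 7, 126623249 to 126630861) had 670, 712 and 593 CPM with compound 1 and 93.1, 101 and 61.0 with DMSO. This was a 7.75-fold rise with a log2 fold change of 2.95 (standard error 0.20, edgeR adjusted p = 0.000412), and it passed under every alternative.

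**Figure D2:**
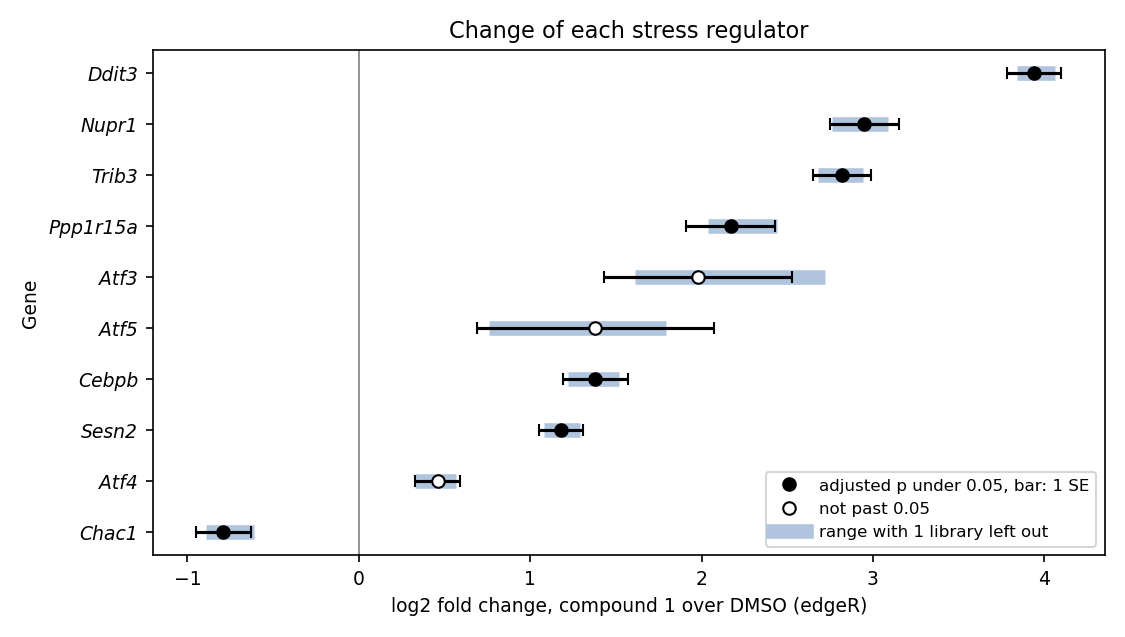
Log2 fold change of compound 1 over DMSO (x axis) for each regulator (y axis), with bars of 1 standard error, filled points for an edgeR adjusted p under 0.05 and a band for the range when 1 library was left out. The bands of all 10 genes stay on their side of 0, and those of Atf3 (1.61 to 2.72) and Atf5 (0.76 to 1.79) are the widest.

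The order of the regulators by FPKM differed between the treatments. With DMSO it began with Atf4 (228 FPKM), then Nupr1 (94.1) and Chac1 (81.4), whose ranges overlapped each other. Cebpb (55.8), Trib3 (31.4), Sesn2 (21.6) and Ddit3 (19.8) followed, of which Sesn2 and Ddit3 overlapped. Ppp1r15a (6.83), Atf3 (4.87) and Atf5 (2.19) were lowest and overlapped with their neighbours. With compound 1, Nupr1 came first (728 FPKM), then Atf4 (314) and Ddit3 (302), which overlapped, Trib3 (221) and Cebpb (145). Sesn2 (49.0) and Chac1 (47.0) overlapped and were followed by Ppp1r15a (30.5), Atf3 (19.2) and Atf5 (5.71), of which Ppp1r15a and Atf3 overlapped. By mean FPKM, Ddit3 thus moved from place 7 to place 3 and Chac1 from place 3 to place 7. At each of these places the range of the gene overlapped that of a neighbour, so the exact places are not resolved.

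**Figure D3:**
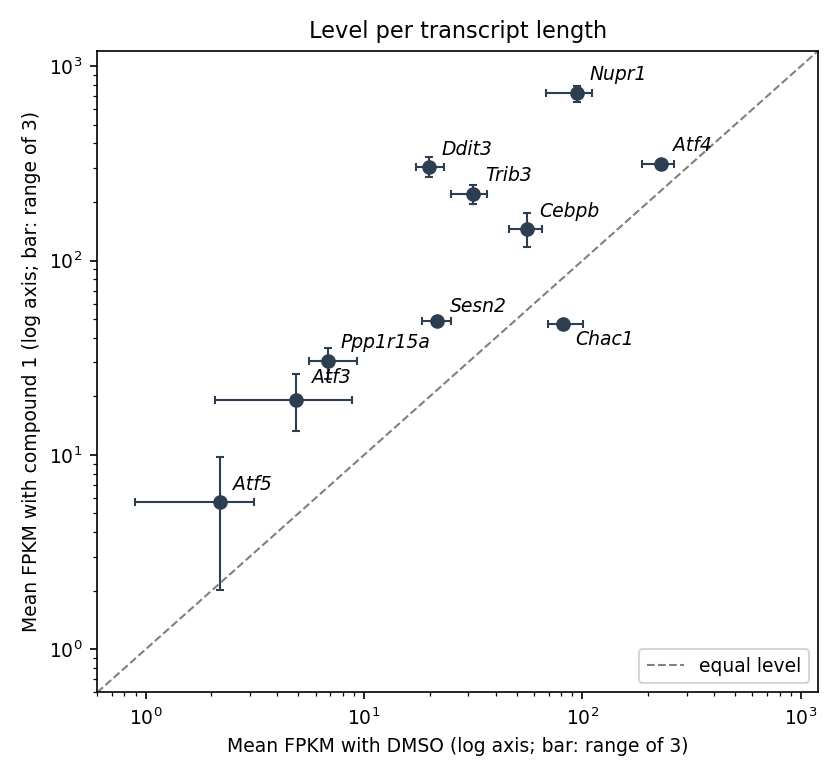
Mean FPKM with compound 1 (y axis) against DMSO (x axis), both on log axes, for the 10 regulators, with bars for the range of the 3 libraries of a treatment and a dashed line of equal level. Chac1 (81.4 with DMSO and 47.0 with compound 1) is the gene below the line, and Atf4 (228 and 314) the closest above it.

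The promoters were read for letters known from this response. RefSeq start sites on GRCm38.p6 gave 11 windows of 250 bases upstream for the 10 regulators. A C/EBP-ATF response element was searched as TGATGNAAT and its core as TGATGCAA, motifs that overlap, a cAMP response element as TGACGTCA, and the endoplasmic reticulum stress element by its full consensus, each on both strands. Of the 32851 windows of this length, 0.816%, 0.791%, 1.55% and 0.113% held them. The core was found for Nupr1, Atf3 and Chac1 and the full element for Nupr1, in each case on the opposite strand. The cAMP response element was found for Ppp1r15a from -12 to -5, counted from the start site. The core lies from -110 to -103 in Atf3 and in Nupr1 and from -193 to -186 in Chac1. These 4 windows are shown because they hold the matches, and the capitals mark the matched letters.
Atf3 (chr1:191183334-191183583, reverse strand): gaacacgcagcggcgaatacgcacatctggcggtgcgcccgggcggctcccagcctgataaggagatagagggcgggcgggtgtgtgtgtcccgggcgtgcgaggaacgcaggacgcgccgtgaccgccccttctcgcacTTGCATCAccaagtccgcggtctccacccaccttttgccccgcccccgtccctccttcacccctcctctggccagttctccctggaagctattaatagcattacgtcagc
Chac1 (chr2:119350992-119351241, forward strand): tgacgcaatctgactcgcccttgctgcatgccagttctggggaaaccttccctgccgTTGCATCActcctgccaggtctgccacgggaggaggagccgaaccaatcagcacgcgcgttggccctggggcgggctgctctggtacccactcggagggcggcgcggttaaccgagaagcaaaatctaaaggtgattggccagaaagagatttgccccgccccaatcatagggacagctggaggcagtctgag
Nupr1 (chr7:126625471-126625720, reverse strand): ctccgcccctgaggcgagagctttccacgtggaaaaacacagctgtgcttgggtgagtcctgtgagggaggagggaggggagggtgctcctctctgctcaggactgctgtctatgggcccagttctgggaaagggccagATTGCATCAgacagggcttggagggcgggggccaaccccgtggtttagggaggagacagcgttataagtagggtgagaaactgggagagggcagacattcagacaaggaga
Ppp1r15a (chr7:45526269-45526518, reverse strand): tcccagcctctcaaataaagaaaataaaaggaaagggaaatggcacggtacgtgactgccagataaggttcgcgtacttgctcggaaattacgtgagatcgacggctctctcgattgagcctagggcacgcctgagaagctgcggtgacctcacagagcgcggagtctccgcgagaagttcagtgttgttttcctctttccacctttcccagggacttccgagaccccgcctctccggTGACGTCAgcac
The core was thus held by Nupr1, which rose, by Chac1, which fell, and by Atf3, which did not pass. The windows of Ddit3, Trib3, Sesn2, Cebpb, Atf4 and Atf5 held none of these letters, which says nothing of sites outside them. A match describes the letters and is not evidence of binding.

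Upstream ATGs, the feature by which some of these mRNAs escape the general fall in translation, were counted in the 5′ leader of 1 transcript per gene. At least 1 was present in 7 regulators, against 51.9% of 21584 protein-coding genes, and at least 2 in 4 regulators against 32.0%. Ppp1r15a had 7 in a leader of 764 bases, Atf4 had 3, and Ddit3 and Atf5 had 2 each. Atf3, Sesn2 and Nupr1 had 1 each, and Trib3, Chac1 and Cebpb had 0. A frame overlapping the main one was present in Atf4, Atf5 and Ppp1r15a, against 17% of genes. Among genes with 0 upstream ATGs were thus Trib3, which rose, and Chac1, which fell.

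Relatives of the regulators differed in both directions. Of 16 tested relatives, 2 rose and 2 fell, against 14.8% of all tested genes passing, and their median log2 fold change was -0.19. Atf2, a stress-activated factor of the same superfamily, rose from 7.27 ± 2.66 to 55.0 ± 11.6 CPM (log2 fold change 2.92, standard error 0.34, edgeR adjusted p = 0.00289). Cebpg, which encodes a partner of ATF4, rose from 20.5 ± 1.44 to 80.7 ± 40.7 CPM (log2 fold change 1.98, edgeR adjusted p = 0.023), but passed in only 1 of the 6 fits with a library left out. Trib2 fell from 39.3 ± 6.39 to 8.81 ± 4.13 CPM (log2 fold change -2.16, edgeR adjusted p = 0.0105), opposite to Trib3. Nupr1l, a relative of Nupr1, fell from 3.75 ± 2.43 to 0.572 ± 0.11 CPM (edgeR adjusted p = 0.0457), and passed in 1 of these 6 fits. Sesn1 had 34.1 ± 9.61 CPM with compound 1 and 58.0 ± 3.00 with DMSO (edgeR adjusted p = 0.0709), and Sesn3 had 12.3 ± 3.44 and 24.8 ± 5.97 (edgeR adjusted p = 0.0821). Trib1, Cebpd, Cebpz, Atf1, Atf6, Atf6b, Atf7 and Batf3 did not pass (edgeR adjusted p from 0.123 to 0.927). Of these, Cebpz shares the C/EBP name but is not a basic leucine zipper gene, and it is included in the count and median. Cebpa, Cebpe, Batf and Batf2 had 0 counts in every library, and Jdp2 was too low to be tested.

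Among the kinases and the eIF2 machinery upstream of ATF4, 1 of 22 genes rose and 2 fell, a share near the 14.8% of all tested genes, and the median log2 fold change was 0.08. None of the 4 kinase genes, named for their role and after their values had been seen, passed, neither that of PERK (Eif2ak3, 4.36 ± 0.818 CPM with compound 1 and 2.42 ± 0.647 with DMSO, edgeR adjusted p = 0.282) nor those of HRI, PKR and GCN2 (Eif2ak1, Eif2ak2 and Eif2ak4, edgeR adjusted p from 0.371 to 0.812). Ppp1ca, the catalytic phosphatase subunit that GADD34 recruits, fell from 1350 ± 45.2 to 763 ± 87.2 CPM (log2 fold change -0.82, edgeR adjusted p = 0.0021). Impact, an inhibitor of GCN2 activation, rose (log2 fold change 0.92, edgeR adjusted p = 0.0219) and Eif2d, a noncanonical initiation factor, fell (-1.07, edgeR adjusted p = 0.0202), and each passed in 1 of the 6 fits with a library left out.

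Of 20 tested genes for other basic leucine zipper factors that can pair with the regulators, 3 rose and 1 fell, a share near the 14.8% of all tested genes, with a median log2 fold change of 0.35. Jun and Junb, subunits of AP-1, rose by log2 fold changes of 1.54 (edgeR adjusted p = 0.000526) and 2.07 (edgeR adjusted p = 0.00599). Nfe2l1, which drives proteasome genes, rose by 0.93 (edgeR adjusted p = 0.0256) and passed in 1 of the 6 fits with a library left out. Crem, a factor of the cAMP pathway, fell from 43.5 ± 7.21 to 9.58 ± 4.2 CPM (log2 fold change -2.18, edgeR adjusted p = 0.0105).

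Targets of ATF4 for amino acid supply moved in both directions, with 4 of 22 higher, 3 lower and a median log2 fold change of 0.40. Over all tested genes, 6.98% were higher and 7.8% lower. Slc3a2, the shared heavy chain of several amino acid exchangers, rose from 886 ± 32.1 to 2460 ± 103 CPM (log2 fold change 1.47, standard error 0.06, edgeR adjusted p = 0.000102). Slc7a11, the cystine transporter chain that pairs with it, fell from 57.8 ± 0.696 to 26.4 ± 6.80 CPM (log2 fold change -1.13, edgeR adjusted p = 0.019), a call lost without DMSO library A, B or C (highest edgeR adjusted p = 0.0638). Got1, an aspartate aminotransferase, rose by 0.58 (edgeR adjusted p = 0.00516) and Psat1, of serine synthesis, fell by 0.77 on the log2 scale (edgeR adjusted p = 0.00825). Mthfd1l, of mitochondrial folate metabolism, had a log2 fold change of 0.80 (edgeR adjusted p = 0.0349) and Cbs, of cysteine synthesis, of -1.61 (edgeR adjusted p = 0.0479), and neither passed in any fit with a library left out. Asns, asparagine synthetase and a classical ATF4 target, was named after its values had been seen. Its level was 1110 ± 69.7 CPM with compound 1 against 1140 ± 71.4 with DMSO, a log2 fold change of -0.05 (standard error 0.07, edgeR adjusted p = 0.742). The difference was smaller than the spread between replicates.

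Among cytosolic aminoacyl-tRNA synthetases known as ATF4 targets and the tRNA exporter gene Xpot, 4 of 12 rose and 1 fell. Their median log2 fold change was 0.37. Mars1, a synthetase gene not counted in this list, had -0.43 and did not pass (edgeR adjusted p = 0.164). The shares over all tested genes were 6.98% higher and 7.8% lower. Xpot had 1.69 (edgeR adjusted p = 0.0203), Sars 0.68 (edgeR adjusted p = 0.0177), Tars 0.52 (edgeR adjusted p = 0.0146) and Wars -0.48 (edgeR adjusted p = 0.0163). Each of these 4 calls was lost in some fits with a library left out, with edgeR adjusted p up to 0.0725.

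Signalling, secreted and cell death genes downstream of ATF4 and CHOP had the highest median of the pathway lists, 1.24. Of 21 tested genes 8 were higher and 0 lower, against 6.98% and 7.8% of all tested genes. Ero1l, the endoplasmic reticulum oxidase known as a CHOP target, rose from 14.6 ± 2.66 to 78.2 ± 4.63 CPM (log2 fold change 2.42, standard error 0.19, edgeR adjusted p = 0.000603). Dusp4, a phosphatase of MAP kinases, rose from 0.98 ± 0.161 to 13.7 ± 5.15 CPM (log2 fold change 3.81, edgeR adjusted p = 0.00266). Cdsn, a gene known from skin, had 4.34 ± 3.74 and 0.297 ± 0.0405 CPM (edgeR adjusted p = 0.0483) and passed in 1 of the 6 fits with a library left out.

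The arms of the unfolded protein response that run through ATF6 and IRE1 held more genes that fell than rose. Of 28 genes, 3 rose and 9 fell, against 6.98% and 7.8% of all tested genes, with a median log2 fold change of -0.29. Dnajb9, a chaperone gene driven by IRE1, rose from 27.6 ± 2.03 to 113 ± 8.97 CPM (log2 fold change 2.03, edgeR adjusted p = 0.00036), and Herpud1, of endoplasmic reticulum degradation, rose by 0.67 (edgeR adjusted p = 0.00184). Derl1, of the same process, had a log2 fold change of 0.35 (edgeR adjusted p = 0.0407) and passed in no fit with a library left out. Sec61b, a subunit of the translocon, fell from 124 ± 7.59 to 46.6 ± 10.4 CPM (log2 fold change -1.41, edgeR adjusted p = 0.00472). Manf, a secreted stress protein, fell from 174 ± 16.0 to 72.9 ± 8.28 CPM (log2 fold change -1.25, edgeR adjusted p = 0.00175). Sdf2l1, a chaperone cofactor, fell by 1.46 on the log2 scale (edgeR adjusted p = 0.0135) and passed in 2 of the 6 fits with a library left out. The chaperone BiP (Hspa5), an ATF6 target named after its values had been seen, fell from 1170 ± 68.7 to 789 ± 44.5 CPM (log2 fold change -0.57, edgeR adjusted p = 0.00342).

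Of 11 tested genes for the turnover and cofactors of ATF4 and CHOP proteins, 0 passed the adjusted threshold in edgeR, 2 had an unadjusted p under 0.05, and 2 passed in DESeq2. Their median log2 fold change was 0.45. Among the 15082 genes tested in edgeR, 4238 had an unadjusted p under 0.05, and in DESeq2 4298 genes passed. Over all 8 pathway lists without the regulators themselves, 25 of 147 tested genes rose and 18 fell, or 29.3% against 14.8% of all tested genes. The lists were written with earlier results of these data known, so these shares only describe the lists. With library size only, 39 rose and 14 fell. That scaling also moved the calls over all genes, from 1053 higher and 1177 lower to 1630 and 796. Of the 43 pathway genes that passed with TMM scaling, 24 passed in each of the 6 fits with a library left out. None of them changed sign under any alternative.

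**Figure D4:**
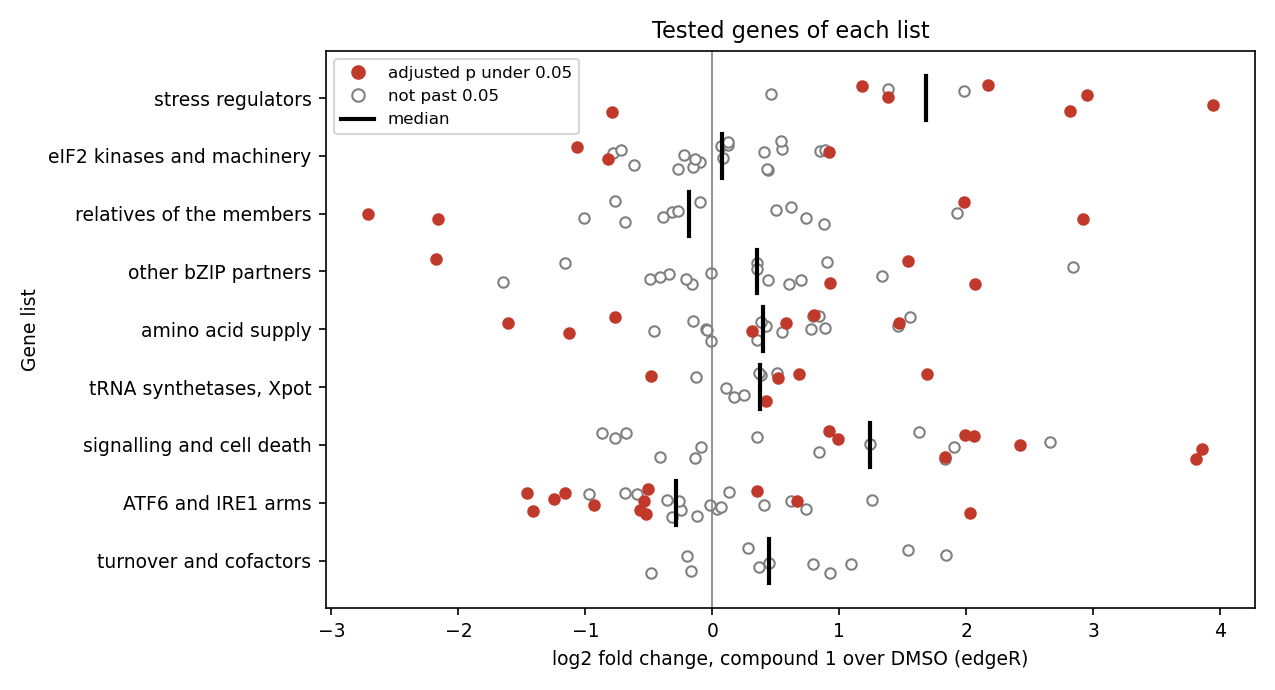
Log2 fold change of compound 1 over DMSO (x axis) for each tested gene of the regulators and the 8 pathway lists (y axis, points spread vertically to be seen), red where the edgeR adjusted p is under 0.05, with a bar at each median. The median is 1.68 for the regulators, 1.24 for signalling and cell death genes and -0.29 for the ATF6 and IRE1 arms.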

How the data were processed

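RNA of αTC1 cells (6 libraries) was sequenced by the Smart-seq2 protocol, which does not keep the strand, and read from both ends. The authors aligned reads to GRCm38 with STAR (2.7.9a per the submitters' processing notes) and counted alignments on Ensembl transcripts irrespective of strand. Their counting used Union mode, which leaves out reads that overlap more than 1 gene. The deposited counts are whole numbers per gene without normalization. The deposited FPKM values are scaled per kilobase and between libraries, close to size factors, and their making is not given in the sources used here. Even values made up 78.1% of counts between 1 and 10, so counts may not be independent fragments.

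Counts were tested with edgeR 4.0.16 in R 4.3.3: filterByExpr (minimum count 10, minimum total 15), TMM, the quasi-likelihood test and p-values adjusted by Benjamini-Hochberg across every gene tested. Standard errors were derived from the log2 fold change and the F statistic (its size over the root of F). Alternatives used DESeq2 1.42.0, limma 3.58.1 on log2 FPKM (pseudocount 1 or 0.1), other scalings and filters, a replicate block, glmTreat, and each library left out. Each tool was tested on simulated data.

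Columns carry WT, the treatment and a letter (A to C), and no label ties the letter to a replicate number. The regulators and gene lists were chosen with earlier results of these data known. Named are the regulators, their relatives, up to 3 genes per direction with the largest changes past 0.05 in each other list, the 5 genes most like Atf4 and Ddit3, and Smndc1. Outside this rule, the eIF2 kinase genes, Asns, Hspa5, cell type markers and genes overlapping a regulator are named. By identifier, 55141 genes matched GENCODE vM21, 99.4% with the same coordinates. Copies of at least 100 bases at 95% identity were sought with blastn 2.17.0, and found only in overlapping genes. The 2 numeric columns that give annotation versions were not used.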

Additional observations from a re-analysis of the deposited data

How the results depend on the processing

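Ddit3, Nupr1, Trib3, Ppp1r15a, Cebpb and Sesn2 kept their call and direction under all 16 alternatives. Of 160 values for the 10 genes, 142 kept direction and side of the threshold, 11 newly passed it, 7 no longer did, and 0 changed sign. Atf4 passed with library size only (0.67), DESeq2, genes of at least 10 counts in every library (0.48) and limma-trend with an FPKM minimum (0.47). It did not pass under the other alternatives. Among these were all 6 fits with a library left out (edgeR adjusted p from 0.0543 to 0.157) and the replicate block (edgeR adjusted p = 0.119). The median log2 fold change of the 10 regulators was 1.89 with library size only, and 1.55 to 1.99 with a library left out.

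The count of regulators past an adjusted p of 0.05 was 7, and 6 to 9 over the alternatives. The count over all genes was 2230, and 4298 with DESeq2, 804 with glmTreat and 1253 to 1556 with a library left out. Of the calls, 47.2% were higher, and 67.2% with library size only. The count of pathway genes was 43, and 68 with DESeq2, 18 with glmTreat, 25 by the filter of the study and 26 to 35 with a library left out.

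With the column letter as a replicate block, 1232 genes, 27 pathway genes and 6 regulators passed, and Chac1 had -0.77 (edgeR adjusted p = 0.0567). Deviations from the group mean correlated across genes by 0.003 to 0.025 for same-letter columns and by -0.027 to 0.012 for different letters. No source ties letters to the jointly handled replicates of the study, so whether they pair the libraries is not known. The cause of these differences was not tested.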

Other observations

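The genes most like Atf4 and Ddit3 across the 6 libraries were sought among 7899 other tested genes whose mean log2 CPM reached 3, by Pearson's correlation of log2 CPM. The points share treatment and library, so these values describe mainly the difference between treatments. For Ddit3 they were Slc3a2 (0.999), Mapk7 (0.998), Cox7a2l (0.998), Eno2 (0.998) and Fam162a (0.998), and 43 genes had a correlation above 0.99. Among the other regulators, Trib3 had 0.993 with Ddit3, Nupr1 0.988, Sesn2 0.980, Ppp1r15a 0.961, Cebpb 0.941, Atf4 0.876, Atf3 0.842, Atf5 0.643 and Chac1 -0.881. For Atf4 the genes were Ints1 (0.994), Mapt (0.987), Cdk5rap2 (0.987), Zfp994 (0.985) and N4bp2l2 (0.985). No gene appeared in both lists. Mapt and Zfp994 passed an adjusted p of 0.05 between the treatments in edgeR, while Ints1, Cdk5rap2 and N4bp2l2 did not.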
